A study of Mus musculus with 9 samples.

Results

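The 10 genes described here are a set fixed by name: the lamins *Lmna*, *Lmnb1* and *Lmnb2*, the lamin B receptor *Lbr*, the inner nuclear membrane genes *Sun1* and *Sun2*, the peptidylarginine deiminases *Padi4* and *Padi2*, and the high mobility group box genes *Hmgb1* and *Hmgb2*. They were found by gene symbol in a table of 22064 mouse genes, and all 10 were among the 14108 genes abundant enough to be tested. The study sequenced poly(A) RNA of sorted lung neutrophils from female BALB/c mice in 9 bulk libraries, 3 in each of 3 groups. Macrometastatic Ly6Ghigh and macrometastatic Ly6Glow neutrophils came from lungs at the macrometastatic stage, the fourth week or later after an orthotopic mammary fat pad injection of 4T1-LM3, a lung-tropic cell population derived in vivo from the 4T1 mammary carcinoma line. Normal lung Ly6Ghigh neutrophils came from BALB/c females without a tumor. The labels name no transgene, deletion or drug in any group, and they do not say whether a library held 1 mouse or a pool.

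The nuclear lamina is a meshwork of A-type lamins (*Lmna*) and B-type lamins (*Lmnb1*, *Lmnb2*) under the inner nuclear membrane. *Lbr* tethers B-type lamins and heterochromatin to that membrane, and *Sun1* and *Sun2* couple the lamina to nesprins, which reach the cytoskeleton. Neutrophils are known for a lobed, deformable nucleus, for little lamin A/C and for a dependence on *Lbr* for lobulation. In the release of neutrophil extracellular traps (NETs), PAD4, the product of *Padi4*, citrullinates histones, chromatin decondenses and the nuclear envelope opens. HMGB1 and HMGB2 bend DNA in chromatin, and HMGB1 acts as an alarmin once outside the cell.

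The libraries held 15267177 to 17841807 counts. Levels below are CPM, counts relative to a library size scaled by trimmed mean of M values (TMM), and FPKM, which also corrects for transcript length, is used wherever levels of different genes are compared. *Ly6g* mRNA did not separate the sorted groups as the gate names would: it was 374 ± 10.8 CPM in macrometastatic Ly6Ghigh, 394 ± 9.32 CPM in macrometastatic Ly6Glow and 119 ± 1.40 CPM in normal lung Ly6Ghigh libraries (mean ± SD, n = 3), so the gate names are used as labels of a surface sort. On FPKM the means were 409, 366 and 180. Summed neutrophil markers (13 genes) lay at 100000 to 102000, 87300 to 89100 and 24700 to 25100 CPM in those groups. By the rule for calls given below, 6 of them were higher in Ly6Glow than in macrometastatic Ly6Ghigh, and 3 (*Ltf*, *Ngp* and *Camp*) were lower. Of all tested genes, 9.29% and 15.9% were called in these directions. Replicate 2 of the normal lung group stood further from its replicates (chi-square per gene 5.30 and 4.05, against 1.41 to 2.50 for the other pairs), and leaving it out moved no log2 fold change of the 10 genes by more than 0.060.

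Promoter windows are shown for the 3 genes that rose most against normal lung, *Hmgb2*, *Lbr* and *Padi4*, and for *Lmna*, which fell. Each runs 5′ to 3′ along the gene, from 250 bases before to 50 bases after an annotated start (RefSeq, GRCm38, the mm10 build). Capitals mark the letters of 6 motifs searched on both strands. These were the CCAAT box, the TATA box TATAAA, the GC box GGGCGG, the E2F-type letters TTTNNCGC, the C/EBP-type letters TTNCNNNAA and the PU.1-type letters GAGGAAGT.
Padi4, chr4:140774154-140774453, minus strand: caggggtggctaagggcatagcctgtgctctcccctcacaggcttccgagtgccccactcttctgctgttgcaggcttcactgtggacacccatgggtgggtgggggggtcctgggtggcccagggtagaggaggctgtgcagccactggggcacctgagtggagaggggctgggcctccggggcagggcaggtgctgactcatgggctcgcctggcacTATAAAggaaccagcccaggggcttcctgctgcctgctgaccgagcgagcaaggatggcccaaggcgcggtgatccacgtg
Lbr, chr1:181842352-181842651, minus strand: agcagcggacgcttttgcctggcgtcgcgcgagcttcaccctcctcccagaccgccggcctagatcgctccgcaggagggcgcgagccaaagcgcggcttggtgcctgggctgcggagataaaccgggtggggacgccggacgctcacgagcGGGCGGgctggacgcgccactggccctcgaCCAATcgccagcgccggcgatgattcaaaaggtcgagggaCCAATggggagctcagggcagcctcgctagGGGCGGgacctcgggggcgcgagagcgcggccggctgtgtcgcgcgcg
Hmgb2, chr8:57511593-57511892, plus strand: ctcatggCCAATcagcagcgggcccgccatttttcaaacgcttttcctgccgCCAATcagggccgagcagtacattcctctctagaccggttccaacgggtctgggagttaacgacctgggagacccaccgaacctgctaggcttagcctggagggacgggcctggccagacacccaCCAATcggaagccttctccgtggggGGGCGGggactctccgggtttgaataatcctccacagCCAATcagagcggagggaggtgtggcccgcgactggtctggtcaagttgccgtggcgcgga
Lmna, chr3:88503303-88503602, minus strand: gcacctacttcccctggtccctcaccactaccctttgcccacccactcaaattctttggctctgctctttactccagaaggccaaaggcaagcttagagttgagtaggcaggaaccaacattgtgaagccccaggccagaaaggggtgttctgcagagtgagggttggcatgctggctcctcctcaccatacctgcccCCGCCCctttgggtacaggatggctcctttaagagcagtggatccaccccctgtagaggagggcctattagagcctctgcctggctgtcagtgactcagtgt
The *Hmgb2* window held 4 CCAAT matches and 1 GC box, and the *Lbr* window held 2 of each. The *Padi4* window held a TATAAA match and none of the other letters, and the *Lmna* window held 1 GC box. Of 32851 windows of the same length, CCAAT was found in 37.4%, TATAAA in 13.6%, the GC box in 35.7%, the E2F-type letters in 5.17%, the C/EBP-type letters in 36.6% and the PU.1-type letters in 3.20%. *Lmna* has a second annotated window (chr3:88493263-88493562), which held 1 CCAAT and 1 C/EBP-type match and is not printed. Both *Lmna* windows lie at starts inside the annotated gene, whose 5′ end is at chr3:88509932, and neither covers that end. No motif was common to the 4 printed windows, and a match is only a run of letters.

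The levels of the 10 genes spanned a wide range within each group. In macrometastatic Ly6Ghigh libraries the order by FPKM was *Hmgb2* (269), *Lbr* (247), *Lmnb1* (246), *Sun2* (232), *Padi4* (188), *Hmgb1* (47.5), *Lmna* (33.4), *Sun1* (5.99), *Lmnb2* (2.18) and *Padi2* (0.623). *Lbr* and *Lmnb1* did not differ beyond their spread there (242 to 255 and 242 to 250 FPKM). In normal lung libraries *Lmna*, at 146 FPKM, stood second only to *Lmnb1* at 368 FPKM among the 10 genes, and its range overlapped that of *Sun2* (133 to 155 and 129 to 143 FPKM). In macrometastatic Ly6Glow libraries *Lmnb1* led at 384 FPKM, *Lbr* and *Sun2* overlapped (202 to 208 and 198 to 209 FPKM), and *Lmna* was at 14.3 FPKM. *Lmnb1* exceeded 98.4% of the 18325 genes with values in macrometastatic Ly6Ghigh, 99.0% in macrometastatic Ly6Glow and 99.1% in normal lung libraries. *Lmna* exceeded 89.1%, 81.5% and 97.4%.

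**Figure D1:**
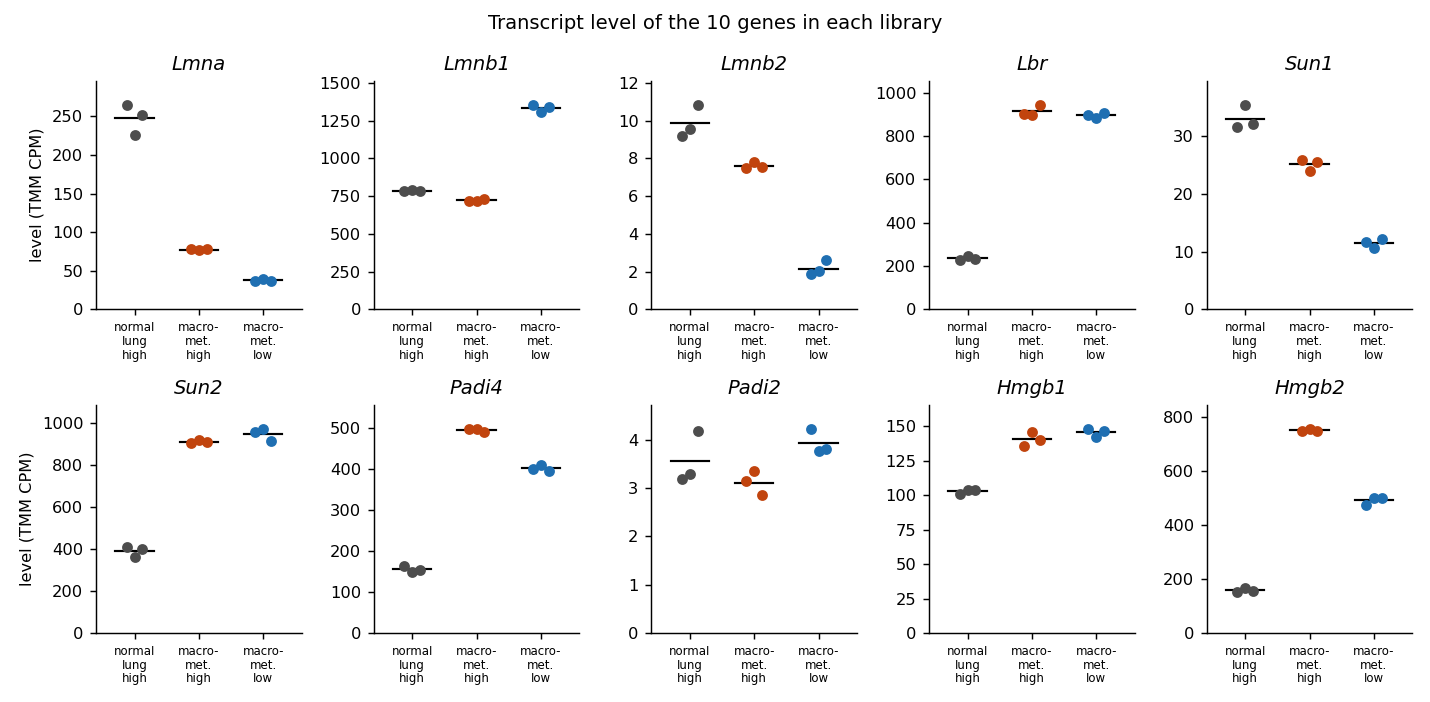
Level of each of the 10 genes (TMM-scaled CPM, linear axes from 0) in the 3 normal lung Ly6Ghigh, 3 macrometastatic Ly6Ghigh and 3 macrometastatic Ly6Glow libraries; points are libraries and bars are group means. *Lmna* steps down from 226 to 264 CPM in normal lung to 36.8 to 39.1 CPM in macrometastatic Ly6Glow libraries, while *Lbr* lies at 230 to 245 CPM in normal lung and at 883 to 941 CPM in the 6 macrometastatic libraries.

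The first comparison asked which of these genes separated macrometastatic Ly6Glow from Ly6Ghigh neutrophils of the same stage. *Lmnb1* was 1.84-fold higher in Ly6Glow, whereas *Lmnb2*, *Sun1*, *Lmna* and *Hmgb2* were lower by 3.50-, 2.18-, 2.06- and 1.53-fold. A gene was called when edgeR's quasi-likelihood test, adjusted by Benjamini-Hochberg over all 14108 genes, gave at most 0.05 and the log2 fold change exceeded 0.58 in size. By that rule 1 gene of 10 was higher and 4 were lower in Ly6Glow, where 9.29% and 15.9% of all tested genes were called (25.2% in either direction). The adjusted p alone was passed by 6 of 10, and by 55.8% of all genes. The median log2 fold change of the 10 genes was -0.17, and that of all genes was -0.04. In 7 of 10 the groups did not overlap, as in 62.1% of all genes.

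*Lmnb1*, encoding lamin B1, measured 717, 720 and 734 CPM in the Ly6Ghigh libraries and 1350, 1310 and 1340 CPM in the Ly6Glow libraries. All 3 Ly6Glow libraries lay above all 3 Ly6Ghigh libraries, with a log2 fold change of 0.88 ± 0.03 (SE) and an edgeR adjusted p of 1.32e-16. *Lmna*, encoding lamins A and C, measured 77.6, 76.8 and 78.1 CPM in Ly6Ghigh and 36.9, 39.1 and 36.8 CPM in Ly6Glow libraries. The groups were apart in the opposite direction, at -1.04 ± 0.06 (adjusted p = 2.93e-12). *Lmnb2*, encoding lamin B2, was scarce, at 7.50, 7.79 and 7.55 CPM in Ly6Ghigh and 1.87, 2.03 and 2.59 CPM in Ly6Glow libraries. Those Ly6Glow values rest on 23.0 to 34.0 counts per library, and the log2 fold change was -1.81 ± 0.15 (adjusted p = 1.17e-09).

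*Sun1* followed the same direction as *Lmna*, with 25.8, 24.0 and 25.6 CPM in Ly6Ghigh and 11.7, 10.7 and 12.2 CPM in Ly6Glow libraries. The difference was -1.12 ± 0.08 on the log2 scale (adjusted p = 1.02e-10), with no overlap. Its paralog *Sun2* was far more abundant and its groups overlapped, at 904, 919 and 907 CPM against 957, 969 and 913 CPM (0.06 ± 0.04, adjusted p = 0.221). *Lbr* likewise gave 904, 895 and 941 CPM against 896, 883 and 906 CPM (-0.03 ± 0.03, adjusted p = 0.476). The intervals of 2 SE either side of these differences ran from -0.02 to 0.13 for *Sun2* and from -0.09 to 0.04 for *Lbr*, and both signs turned in other scalings of the libraries, to -0.18 for *Sun2* on log2(FPKM + 1) and to 0.04 for *Lbr* with DESeq2 size factors. On log2(FPKM + 1) *Lbr* was at -0.26 (limma adjusted p = 5.63e-05), past the adjusted p but not the fold threshold.

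*Padi4* was lower in Ly6Glow neutrophils, by an amount that varied with the scaling. It measured 496, 496 and 489 CPM in Ly6Ghigh and 400, 408 and 394 CPM in Ly6Glow libraries. The log2 fold change of -0.30 ± 0.04 passed the edgeR adjusted p (1.66e-07) but not the fold threshold, so it was not called. On log2(FPKM + 1) *Padi4* was at -0.54 (limma adjusted p = 6.58e-08), and with DESeq2 size factors at -0.235. It was not called there either. *Padi2*, whose product citrullinates a range of cellular proteins, was near the lower end of detection at 3.14, 3.36 and 2.85 CPM against 4.22, 3.76 and 3.81 CPM. Its adjusted p was 0.0989, and its interval of 2 SE either side ran from -0.00298 to 0.67, although the groups did not overlap. With DESeq2 size factors the difference was 0.40 and passed the adjusted p (0.0491, edgeR) but not the fold threshold, so the outcome for *Padi2* depends on the scaling.

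*Hmgb2*, a chromatin architectural gene that is abundant in dividing cells, measured 747, 755 and 750 CPM in Ly6Ghigh and 473, 501 and 499 CPM in Ly6Glow libraries. The groups did not overlap, at -0.61 ± 0.04 (adjusted p = 2.55e-12), and the call was lost at -0.55 with DESeq2 size factors and with DESeq2. Summed markers of proliferating cells (12 genes, 11 of them lower in Ly6Glow) were 609 to 620 CPM in Ly6Ghigh and 126 to 135 CPM in Ly6Glow libraries, and their part in the *Hmgb2* difference was not tested. *Hmgb1* gave 136, 146 and 140 CPM against 148, 142 and 147 CPM, overlapping groups with an adjusted p of 0.296, and its sign turned to -0.18 on log2(FPKM + 1). Reads of *Hmgb1* and *Hmgb2* can be shared with processed pseudogenes, so both levels are uncertain to that extent.

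**Figure D2:**
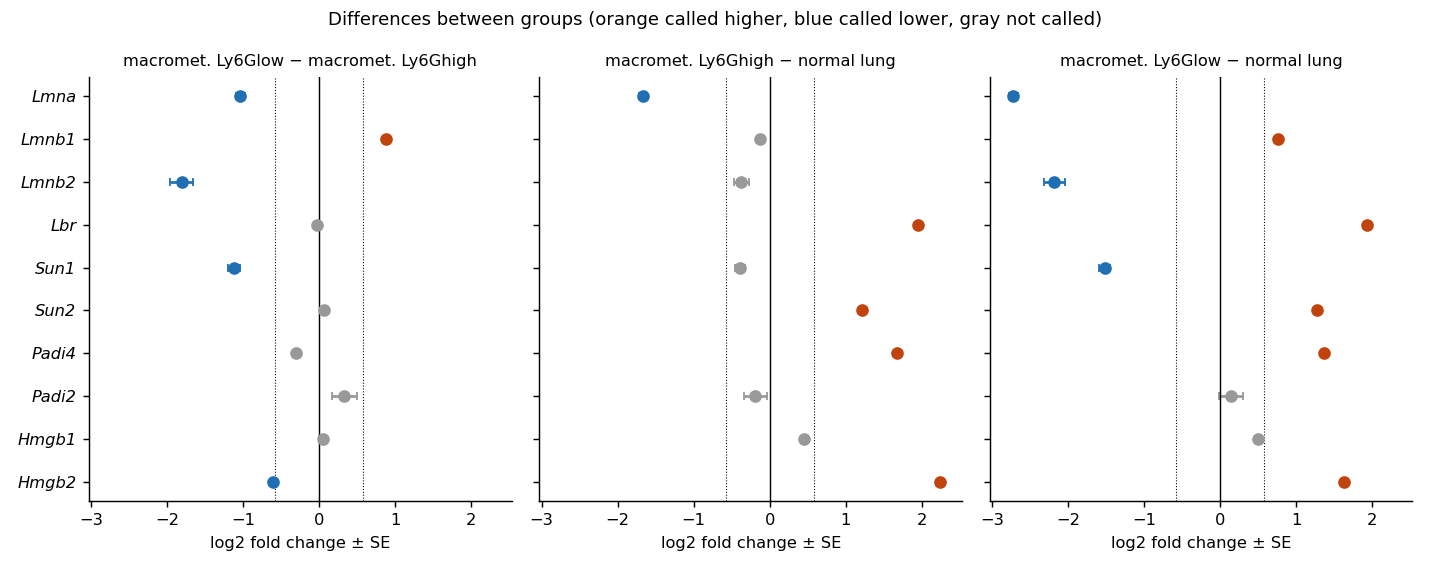
Log2 fold change of the 10 genes in the 3 comparisons (points, edgeR on TMM-scaled counts; bars, SE; dotted lines, the threshold of 0.58 on either side of 0). Of the 10 genes, 1 was higher and 4 lower in macrometastatic Ly6Glow than Ly6Ghigh, 4 higher and 1 lower in macrometastatic Ly6Ghigh than normal lung, and 5 higher and 3 lower in macrometastatic Ly6Glow than normal lung.

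The second comparison set macrometastatic Ly6Ghigh neutrophils against Ly6Ghigh neutrophils of normal lung, which asks what differed with the metastatic lung under the same gate name. *Hmgb2* was 4.73-fold, *Lbr* 3.88-fold, *Padi4* 3.19-fold and *Sun2* 2.33-fold higher in macrometastatic Ly6Ghigh, and *Lmna* was 3.19-fold lower. Of the 10 genes, 4 were higher and 1 was lower, where 26.3% and 36.6% of all tested genes were called (62.9% in either direction). The adjusted p alone was passed by 9 of 10, and by 84.6% of all genes. The groups did not overlap for 9 of 10 genes, against 85.2% of all genes. The median log2 fold change was 0.16 for the 10 genes and -0.09 for all genes.

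*Lbr* measured 230, 245 and 233 CPM in normal lung libraries, far below the 895 to 941 CPM of the macrometastatic Ly6Ghigh libraries given above. The log2 fold change was 1.95 ± 0.03 (edgeR adjusted p = 3.63e-22). *Sun2* measured 410, 362 and 401 CPM in normal lung libraries and rose by 1.22 ± 0.04 (adjusted p = 1.03e-17). These inner nuclear membrane genes therefore both stood higher in macrometastatic Ly6Ghigh, with no overlap.

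*Padi4* measured 163, 148 and 153 CPM in normal lung libraries against 489 to 496 CPM in macrometastatic Ly6Ghigh libraries, a log2 fold change of 1.68 ± 0.04 (adjusted p = 1.18e-20). *Hmgb2* measured 153, 168 and 156 CPM in normal lung libraries and rose by 2.24 ± 0.04 (adjusted p = 2.45e-22). Markers of proliferating cells summed to 212 to 218 CPM in normal lung libraries, and 9 of 12 were higher in macrometastatic Ly6Ghigh. Granule genes of immature granulocytes summed to 6810 to 7160 CPM in normal lung and 39900 to 40700 CPM in macrometastatic Ly6Ghigh libraries, with 11 of 12 higher. Of these, *Ltf*, *Camp* and *Ngp* are also on the neutrophil marker list. *Ngp* (17200 CPM) and *Ltf* (11400 CPM) were the most abundant in macrometastatic Ly6Ghigh. Eosinophil and basophil markers were higher for 7 of 7 tested and B cell markers for 3 of 5. Other lists went the other way, with 5 of 6 T cell and 5 of 5 dendritic markers lower. So were 2 of 3 NK cell and 3 of 3 erythroid markers tested. Neutrophil markers were higher for 11 of 13 and lower for 0, with a median log2 fold change of 1.73. The part of all these lists in the *Padi4*, *Lbr* and *Hmgb2* differences was not tested.

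*Lmna* measured 264, 226 and 252 CPM in normal lung libraries against 76.8 to 78.1 CPM in macrometastatic Ly6Ghigh libraries. The log2 fold change was -1.67 ± 0.05 (adjusted p = 2.12e-18), and the groups were far apart. *Lmna* is strongly expressed in epithelial, endothelial and mesenchymal cells, and transcripts of these cells moved with it. Epithelial or tumor markers (9 genes) summed to 1110 to 1240 CPM in normal lung and 104 to 110 CPM in macrometastatic Ly6Ghigh libraries, endothelial markers (6 genes) to 881 to 961 and 136 to 141 CPM, and fibroblast markers (6 genes) to 518 to 549 and 49.8 to 57.4 CPM. All 9, 6 and 6 of these markers were lower in macrometastatic Ly6Ghigh, and no defining marker was at 0 in either group. Macrophage markers (15 genes, 10 lower) summed to 2550 to 2580 and 1970 to 2030 CPM. Within these sums *Chil3*, also an immature granule marker, went the other way, at 964 and 1270 CPM, and was not called. The part of all these markers in the *Lmna* difference was not tested. In bulk libraries fewer cells of a type and less RNA per cell cannot be told apart.

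The remaining members passed the adjusted p without reaching the fold threshold, except *Padi2*. *Lmnb1* was at 784, 793 and 784 CPM in normal lung libraries, a difference of -0.12 ± 0.03 (adjusted p = 0.000477). *Lmnb2* was at 9.21, 9.54 and 10.8 CPM there (-0.37 ± 0.10, adjusted p = 0.00202) and *Sun1* at 31.5, 35.3 and 32.1 CPM (-0.39 ± 0.06, adjusted p = 5.87e-06). On log2(FPKM + 1) all 3 crossed the threshold as lower, at -0.58, -0.62 and -0.76. *Hmgb1* was at 101, 104 and 104 CPM in normal lung libraries, 0.45 ± 0.04 below macrometastatic Ly6Ghigh (adjusted p = 3.60e-10), and at -0.01 on log2(FPKM + 1) its sign turned. *Padi2* was at 3.19, 3.29 and 4.19 CPM, overlapping the macrometastatic Ly6Ghigh libraries (-0.19 ± 0.15, adjusted p = 0.26). It passed the adjusted p but not the fold threshold with upper-quartile scaling (-0.38, edgeR adjusted p = 0.0268) and on log2(FPKM + 1) (-0.28, limma adjusted p = 0.00123).

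Macrometastatic Ly6Glow neutrophils were compared with the same normal lung libraries, which serve as controls for both macrometastatic groups. *Lbr* was 3.80-fold, *Hmgb2* 3.09-fold, *Padi4* 2.59-fold, *Sun2* 2.42-fold and *Lmnb1* 1.69-fold higher in Ly6Glow, whereas *Lmna* was 6.58-fold, *Lmnb2* 4.53-fold and *Sun1* 2.86-fold lower. Of the 10 genes, 5 were higher and 3 lower, where 28.7% and 40.8% of all tested genes were called (69.5% in either direction). The adjusted p was passed by 9 of 10 and the groups did not overlap for 9 of 10, each against 86.8% of all genes. *Hmgb1*, at 0.50 ± 0.04, passed the adjusted p (7.29e-11) but not the fold threshold, and *Padi2* was at 0.14 ± 0.16 (adjusted p = 0.391). The median log2 fold change of the 10 genes was 0.63, beside -0.16 for all genes. Of the proliferating cell markers 0 of 12 were higher and 7 lower in Ly6Glow (126 to 135 against 212 to 218 CPM, edgeR), while *Hmgb2* was higher. Of the immature granule markers 10 of 12 were higher and 1 lower (15900 to 16600 against 6810 to 7160 CPM). Neutrophil markers were higher for 11 of 13 and lower for 0, with a median log2 fold change of 1.72. The part of these lists in these differences was not tested.

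The largest of these differences was that of *Lmna*, with 3 libraries at 36.8 to 39.1 CPM against 226 to 264 CPM (-2.72 ± 0.06, adjusted p = 4.64e-21). *Lmnb2* differed by -2.18 ± 0.14 (adjusted p = 2.76e-12) and *Sun1* by -1.52 ± 0.08 (adjusted p = 2.83e-14), each with no overlap. Markers of other lung cells were compared beside them. Epithelial or tumor, endothelial and fibroblast markers summed to 106 to 112, 168 to 177 and 51.7 to 57.7 CPM in Ly6Glow libraries, near the macrometastatic Ly6Ghigh sums, and 8 of 9, 6 of 6 and 6 of 6 of these markers were lower than in normal lung. Between the macrometastatic groups, 3 of the 9 epithelial or tumor markers were lower in Ly6Glow and no endothelial or fibroblast marker was called by edgeR. Other lists did move between these groups. Macrophage markers were 883 to 917 CPM in Ly6Glow libraries, with 6 of 15 lower than in macrometastatic Ly6Ghigh. Among the lower ones *Chil3*, also an immature granule marker, was at 277 against 1270 CPM. It made up most of the difference between these sums. Eosinophil and basophil markers (7 of 7 tested lower) summed to 99.0 to 107 CPM in macrometastatic Ly6Ghigh, 16.5 to 21.4 in Ly6Glow and 3.24 to 4.56 CPM in normal lung libraries, and B cell markers (5 of 5 lower) to 46.3 to 47.3, 28.1 to 30.0 and 27.4 to 29.9 CPM. NK cell markers were lower in Ly6Glow for 3 of 3 tested. Against normal lung, 5 of 6 T cell, 5 of 5 dendritic and 12 of 15 macrophage markers were lower in Ly6Glow. So were 3 of 3 NK cell and 3 of 3 erythroid markers tested, while 6 of 7 eosinophil and basophil and 1 of 5 B cell markers were higher. The part of all these lists in the *Lmna*, *Sun1* and *Lmnb2* differences was not tested.

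The call for *Lmnb1* (0.76 ± 0.03, adjusted p = 1.14e-16) depended on the scaling: it was lost at 0.57 with upper-quartile scaling, at 0.58 with a minimum of 10 counts in every library and at 0.06 on log2(FPKM + 1). *Sun2* (1.27 ± 0.04) fell below the threshold on log2(FPKM + 1), at 0.57. *Padi4* (1.37 ± 0.04), *Hmgb2* (1.63 ± 0.04) and *Lbr* (1.93 ± 0.03) kept their calls on that scale at smaller values of 0.66, 0.92 and 1.22. *Hmgb1* turned to -0.19 there and rose to a called 0.59 with DESeq2 size factors.

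**Figure D3:**
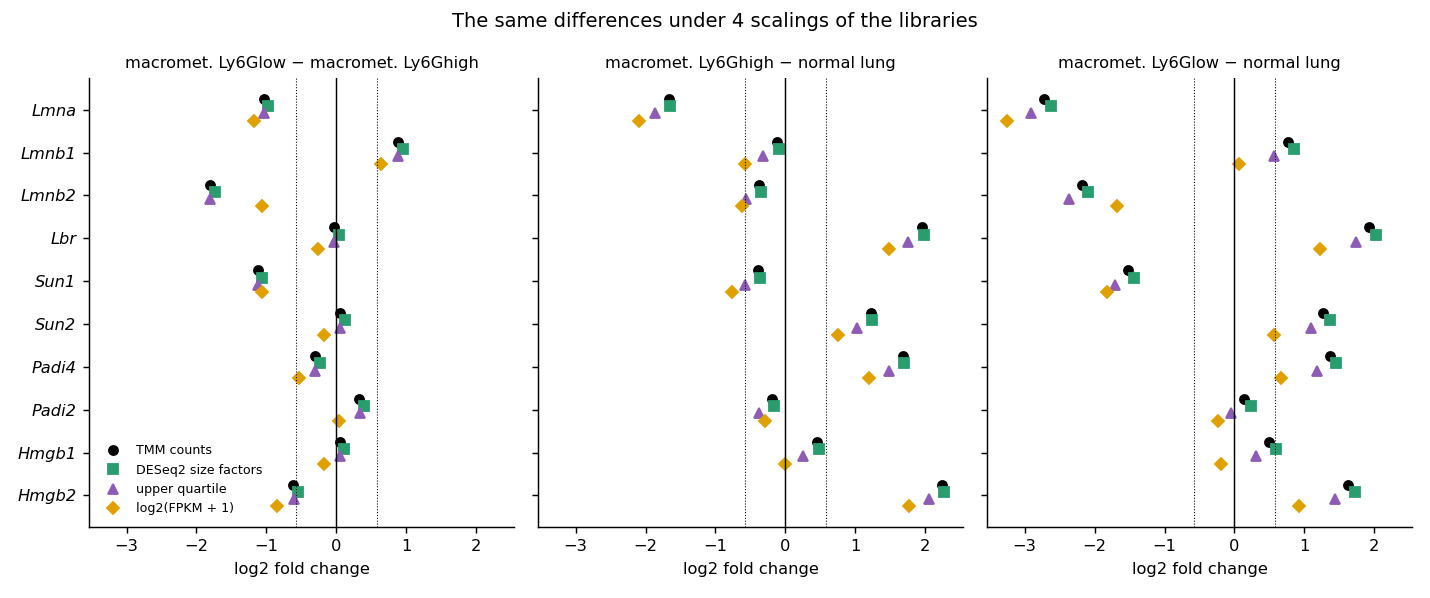
Log2 fold change of the 10 genes in the 3 comparisons with 4 ways of scaling the libraries (symbols; dotted lines, the threshold of 0.58 on either side of 0). Against normal lung, log2(FPKM + 1) places the points of *Lbr*, *Padi4*, *Hmgb2* and *Sun2* lower than TMM-scaled counts but still above 0, and *Hmgb1* moves from 0.45 to -0.01 in macrometastatic Ly6Ghigh.

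Part of these shifts applied to all genes. The median of all tested genes was -0.09 on TMM-scaled counts and -0.32 on log2(FPKM + 1) for macrometastatic Ly6Ghigh against normal lung, and -0.16 and -0.49 for macrometastatic Ly6Glow. The TMM factors were 1.30 to 1.32 in normal lung, 0.945 to 0.950 in macrometastatic Ly6Ghigh and 0.803 to 0.807 in macrometastatic Ly6Glow libraries. Relative to that median on log2(FPKM + 1), macrometastatic Ly6Ghigh stood above normal lung by 2.09 for *Hmgb2*, 1.80 for *Lbr*, 1.53 for *Padi4*, 1.08 for *Sun2* and 0.31 for *Hmgb1*, and below it by -1.77 for *Lmna*. Relative to the Ly6Glow median on the same scale, *Lmnb1* stood at 0.55, *Hmgb1* at 0.30, *Sun1* at -1.33 and *Lmna* at -2.77.

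Ratios between 2 genes of the same library do not depend on the scaling. The FPKM ratio of *Lmnb1* to *Lmna* was 2.35, 2.83 and 2.45 in normal lung, 7.39, 7.36 and 7.33 in macrometastatic Ly6Ghigh and 27.2, 24.7 and 29.2 in macrometastatic Ly6Glow libraries. The 3 groups were fully separated on this ratio. *Lmna* is the denominator of this ratio and of the next, and against normal lung it moved with markers of other lung cells. The part of such cells in the ratios was not tested. *Lbr* to *Lmna* rose in the same order, from 0.608 ± 0.078 through 7.39 ± 0.11 to 14.4 ± 1.2 (mean ± SD, n = 3), and *Sun2* to *Sun1* from 12.8 ± 1.6 through 38.7 ± 2.1 to 87.5 ± 7.1. *Lbr* and *Lmnb1* were at parity in macrometastatic Ly6Ghigh (1.00 ± 0.02), at 0.535 ± 0.005 in macrometastatic Ly6Glow and at 0.238 ± 0.006 in normal lung libraries.

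The ratios of the *Padi* and *Hmgb* pairs had the order of *Lbr* to *Lmnb1*. *Padi4* to *Padi2* was highest in macrometastatic Ly6Ghigh (303 ± 25), intermediate in macrometastatic Ly6Glow (192 ± 13) and lowest in normal lung libraries (84.2 ± 13.8). *Hmgb2* to *Hmgb1* followed the same order at 5.67 ± 0.18, 3.58 ± 0.18 and 1.64 ± 0.07. No group overlapped another on any of the 6 ratios. The pairs were chosen after the levels were seen and the ratios are descriptions, and an exact permutation test of 3 against 3 libraries cannot go below 0.1.

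**Figure D4:**
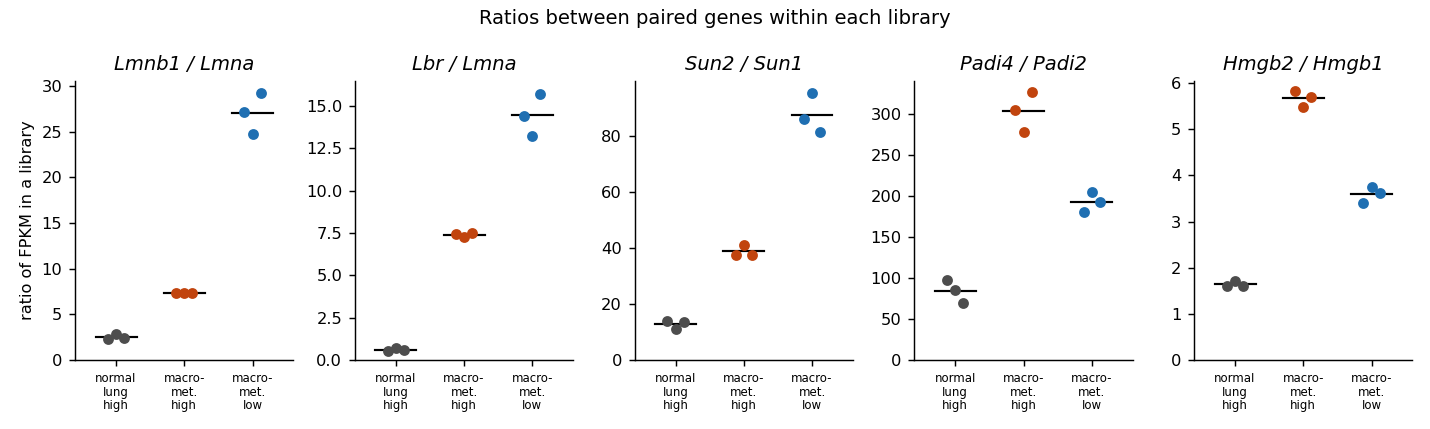
Ratio of FPKM values of 2 genes within each library (linear axes from 0) in normal lung Ly6Ghigh, macrometastatic Ly6Ghigh and macrometastatic Ly6Glow libraries; points are libraries and bars group means. *Lmnb1* to *Lmna* reaches 24.7 to 29.2 in macrometastatic Ly6Glow against 2.35 to 2.83 in normal lung libraries, and *Hmgb2* to *Hmgb1* is highest in macrometastatic Ly6Ghigh at 5.49 to 5.83.

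Other genes of the nuclear envelope and lamina, from a list of 30 with 28 tested, were read against the same background. In macrometastatic Ly6Ghigh against normal lung 15 were higher and 1 lower, where 26.3% and 36.6% of all genes were called, with a median of 0.62 beside -0.09 for all genes. On log2(FPKM + 1) these counts were 6 and 4, and with upper-quartile scaling 11 and 3. *Tmpo*, encoding the lamina-associated polypeptide LAP2, was at 292 ± 2.5 CPM in macrometastatic Ly6Ghigh, 291 ± 8.8 in Ly6Glow and 74.6 ± 4.0 CPM in normal lung libraries, a log2 fold change of 1.97 in the Ly6Ghigh comparison and 1.96 in the Ly6Glow comparison. *Syne1*, encoding nesprin-1, the partner of SUN proteins, was at 1380, 827 and 622 CPM in the same order of groups. *Syne2*, encoding nesprin-2, was at 205, 170 and 139 CPM and was not called in any of the 3 comparisons. On FPKM the order of Ly6Glow and normal lung turned for both. The means were 106, 57.7 and 66 for *Syne1* and 8.97, 6.33 and 8.41 for *Syne2*, in the same order of groups.

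In macrometastatic Ly6Glow against Ly6Ghigh, 1 of these 28 genes was higher and 8 were lower, where 9.29% and 15.9% of all genes were called. With DESeq2 size factors these counts were 2 and 6, and over the alternatives they ranged from 0 to 7 and from 4 to 12. The higher gene in the main fit was *Emd*, encoding emerin, a lamin-binding protein of the inner membrane. *Emd* was at 173 ± 7.0 against 94.0 ± 3.6 CPM (0.88 ± 0.04, edgeR adjusted p = 7.06e-14). Among the lower genes, *Zmpste24*, the protease that matures prelamin A, was at 36.9 against 139 CPM (-1.91 ± 0.05, adjusted p = 5.29e-18). *Banf1*, which bridges chromatin and the envelope, was at 3.58 against 8.37 CPM (-1.22 ± 0.13). *Cebpe*, a granulocyte transcription factor known to act on *Lbr*, was at 8.07 ± 1.26 against 47.4 ± 0.9 CPM (-2.56 ± 0.09). *Lbr* itself was not called between these groups. In normal lung libraries *Cebpe* was at 4.13 ± 0.62 CPM. Like *Lbr*, it was higher in macrometastatic Ly6Ghigh (3.52 ± 0.09) and in Ly6Glow (0.96 ± 0.13) than there. A link between the 2 genes was not tested. Against normal lung, 11 of 28 were higher and 5 lower in Ly6Glow, where 28.7% and 40.8% of all genes were called, and 5 and 6 on log2(FPKM + 1). *Zmpste24* was singled out after its values were seen.

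Of 27 nuclear pore genes tested, 2 were higher and 10 lower in macrometastatic Ly6Glow than Ly6Ghigh, where 9.29% and 15.9% of all genes were called, with a median of -0.38 beside -0.04 for all genes. In macrometastatic Ly6Ghigh against normal lung 2 were higher and 7 lower, 33.3% of the list beside 62.9% of all genes, and over the alternatives these counts ranged from 0 to 9 and from 0 to 12. In Ly6Glow against normal lung 2 were higher and 10 lower, 44.4% of the list beside 69.5% of all genes, and on log2(FPKM + 1) 0 and 15 by limma. *Nup210*, a membrane nucleoporin, was at 66.4 ± 4.8 CPM in normal lung, 37.5 ± 1.9 in macrometastatic Ly6Ghigh and 13.0 ± 0.3 CPM in Ly6Glow libraries. *Nup93*, a scaffold nucleoporin, was at 11.2, 5.93 and 3.25 CPM in the same order. *Nup98*, a mobile nucleoporin singled out after its values were seen, went the other way in Ly6Glow, at 543 ± 5.7 against 266 ± 0.7 CPM in macrometastatic Ly6Ghigh (1.03 ± 0.03, edgeR adjusted p = 3.30e-17).

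Of the other PAD genes, *Padi3* alone was tested. It was at 3.74 ± 0.56 CPM in macrometastatic Ly6Ghigh, 3.17 ± 0.20 in Ly6Glow and 1.19 ± 0.07 CPM in normal lung libraries, and was higher in both comparisons with normal lung (1.65 ± 0.18 and 1.41 ± 0.20). Both calls were lost on log2(FPKM + 1), where its means of 1.18, 0.847 and 0.517 FPKM in the same order of groups lie near the added 1. *Padi1* and *Padi6* reached at most 6 and 3 counts in any library, a level at which no difference was detectable.

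Other HMG and linker histone genes (11 tested) gave 0 higher and 5 lower in macrometastatic Ly6Glow against Ly6Ghigh by edgeR, where 9.29% and 15.9% of all genes were called. Without a fold threshold 2 were higher, at a threshold of 1 the lower count was 2, and at an unadjusted p of 0.05 or by limma on log2(FPKM + 1) the counts were 0 and 5. *Hmgn2*, a nucleosome-binding gene named after its values were seen, was at 1150 ± 18, 508 ± 6 and 287 ± 5 CPM in macrometastatic Ly6Ghigh, Ly6Glow and normal lung libraries, the order seen for *Hmgb2*. *Hmgb3* was at 8.72, 4.66 and 7.20 CPM. *H1f0*, a linker histone gene, was at 16.6 ± 1.7 CPM in macrometastatic Ly6Ghigh and 6.81 ± 0.96 CPM in Ly6Glow libraries. Against normal lung, 4 were higher and 4 lower in macrometastatic Ly6Ghigh and 3 and 5 in Ly6Glow, a share called of 72.7% in each beside 62.9% and 69.5% of all genes, and *H1f2*, encoding a linker histone, was at 79.7 against 19.6 CPM (2.03 ± 0.06). *Hmgn1* was at 4.69 ± 0.58 CPM in Ly6Glow and 33.1 ± 0.8 CPM in normal lung libraries.

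Genes named in NET chromatin release (15 tested) were higher in macrometastatic Ly6Ghigh than in normal lung for 11 and lower for 4, where 26.3% and 36.6% of all genes were called, and for 7 and 4 on log2(FPKM + 1). *Elane*, encoding neutrophil elastase, was at 9.06 ± 0.62 CPM in macrometastatic Ly6Ghigh, 1.28 ± 0.46 in Ly6Glow and 0.331 ± 0.092 CPM in normal lung libraries. *Prtn3*, encoding proteinase 3, was at 36.1, 7.61 and 0.737 CPM. *Serpinb1a*, an inhibitor of elastase, was at 481, 185 and 51.3 CPM, so protease and inhibitor transcripts stood in the same order as *Padi4*. *Gsdmd*, encoding the pore-forming gasdermin D, was at 112, 135 and 67.0 CPM. *Cybb*, the catalytic subunit of the phagocyte oxidase, was at 2070, 689 and 1070 CPM, lower in Ly6Glow than in normal lung (-0.64 ± 0.03). It lay closest to the threshold of the 5 lower genes there, a count that was 4 with DESeq2 size factors. *Cdk6*, a cell cycle kinase linked to NET release, was at 25.1, 22.2 and 53.4 CPM.

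Between the macrometastatic groups 8 of these 15 genes were lower in Ly6Glow and 1 higher, where 15.9% and 9.29% of all genes were called, and 7 and 0 on log2(FPKM + 1) by limma, with a median of -0.97 beside -0.04 for all genes. The immature granule markers moved with this list, with 10 of 12 lower and sums of 39900 to 40700 CPM in Ly6Ghigh and 15900 to 16600 CPM in Ly6Glow libraries. Of the 8 lower genes, *Elane*, *Prtn3*, *Mpo* and *Ctsg* are themselves on that marker list. *Padi4* was at -0.30, and at -0.54 on log2(FPKM + 1), and was called on neither scale. Against normal lung, 10 were higher and 5 lower in Ly6Glow, where 28.7% and 40.8% of all genes were called, and 5 and 5 on log2(FPKM + 1). *Dnase1l3*, a nuclease that degrades extracellular chromatin, was at 0.778 ± 0.344 CPM in Ly6Glow and 12.7 ± 0.7 CPM in normal lung libraries.

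Of 7 receptors of HMGB1, 2 were higher and 1 lower in macrometastatic Ly6Glow than Ly6Ghigh, where 9.29% and 15.9% of all genes were called, and 0 in either direction past the fold threshold by limma on log2(FPKM + 1). *Tlr4*, a receptor for lipopolysaccharide and HMGB1, was at 425 ± 21 against 251 ± 4 CPM (0.76 ± 0.05). *Ager*, encoding the receptor RAGE and also abundant in alveolar epithelium, was at 142 ± 11 CPM in normal lung against 18 ± 0.56 in macrometastatic Ly6Ghigh and 21.7 ± 0.6 CPM in Ly6Glow libraries, the direction of the epithelial marker sums given above. Of the 7, 1 was higher and 3 lower in each comparison with normal lung, 57.1% of the list beside 62.9% and 69.5% of all genes.

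**Figure D5:**
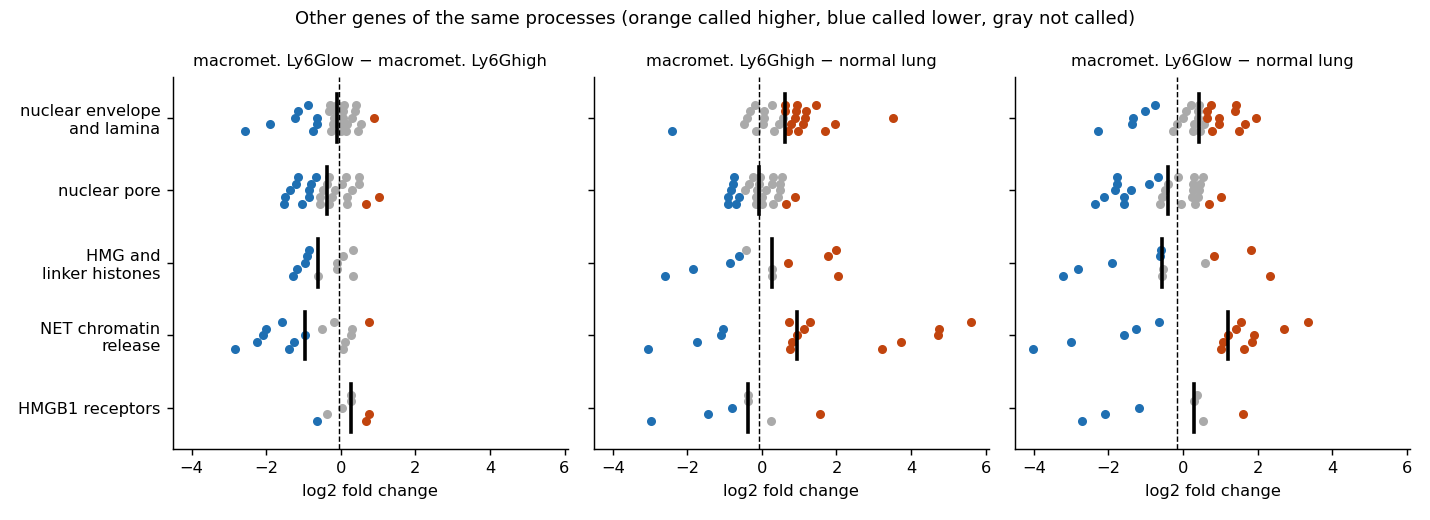
Log2 fold change of the other genes of 5 fixed lists in the 3 comparisons (points, 1 gene each; thick bars, list median; dashed line, median of all 14108 genes). The nuclear envelope and lamina list has a median of 0.62 in macrometastatic Ly6Ghigh against normal lung and -0.11 in macrometastatic Ly6Glow against Ly6Ghigh.

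Genes with the most similar profile were sought among 7390 genes of at least 10 CPM on average, by Pearson correlation of log2 CPM over the 9 libraries. The 9 libraries form 3 groups, so such values describe the pattern of group means. *Lbr* was most like *Dach1*, *Gsdme* and *Cstdc5* (r = 0.99977, 0.99956 and 0.99956), and *Padi4* was most like *Lcn2*, *Gys1* and *Map3k9* (0.99945, 0.99936 and 0.99926), of which *Lcn2* is also an immature granule marker. *Lmna* was most like *Piezo1*, *Bag3* and *Pald1* (0.99967, 0.99908 and 0.99886). *Lmnb1* was most like *Nfkbiz*, *Adam17* and *Nedd9* (0.99939, 0.99933 and 0.99800), and *Hmgb2* was most like *Rgs18*, *Scp2* and *Gca* (0.99913, 0.99907 and 0.99896). The number of genes above 0.99 was 524 for *Lbr*, 307 for *Padi4*, 178 for *Hmgb2*, 173 for *Lmna* and 48 for *Lmnb1*.

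On the mm10 build the genes lie at chr4:140745508-140774239 (*Padi4*), chr4:140906336-140952586 (*Padi2*), chr3:88481148-88509932 (*Lmna*), chr10:80901363-80918245 (*Lmnb2*), chr1:181815315-181842401 (*Lbr*), chr5:139200564-139249839 (*Sun1*), chr15:79724068-79742536 (*Sun2*), chr5:149046702-149053057 (*Hmgb1*) and chr8:57511843-57515999 (*Hmgb2*). The differences concern whole-gene transcript levels, since the tables do not separate isoforms such as lamin A and lamin C.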

How the data were processed

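RNA of sorted neutrophils was poly(A)-selected and sequenced from strand-specific, 150 bp paired-end libraries. The authors deposited estimated counts per gene, of which 37.9% were whole numbers, and FPKM values, both on mm10 per the submitters' processing notes. The aligner and counter are not given in the sources used here. Of 22064 genes listed, 18325 had values and 14108 passed edgeR's filter by group.

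Counts were rounded and scaled by TMM, and all 9 libraries entered 1 quasi-likelihood fit without a block (edgeR 4.0.16, R 4.3.3), contrasting the 3 groups pairwise. SE is the log2 fold change divided by the square root of F. Checks used DESeq2 1.42.0 and limma 3.58.1 on log2(FPKM + 1). On simulated data the fits were tested first. Total counts were 15267177 to 17841807 per library, so depth limits mainly *Padi2*, *Lmnb2* and the scarce PAD genes, and intervals cover the spread between libraries only. Groups came from sample titles and treatment fields. Whether libraries came from separate mice is not stated, so p-values measure the spread between these samples, which may be technical. Same-numbered replicates did not deviate together (correlations -0.0683 to 0.0766).

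The 10 members and all gene lists were chosen with earlier results of these data known. Named genes are the members, *Ly6g*, the gene of largest called change with at least 10 CPM per list and comparison, a fixed set of 15 list genes, and the 3 genes most like each of *Padi4*, *Lmna*, *Lmnb1*, *Lbr* and *Hmgb2*. Exceptions are named as chosen after seeing values. Alternatives were other scalings, filters, thresholds, tools, a replicate block and leaving out each library. Promoter windows are RefSeq's.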

Additional observations from a re-analysis of the deposited data

How the results depend on the processing

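Of the alternatives for single genes, 608 values kept direction and side of the threshold, 18 reversed, 18 gained and 13 lost a call. The unadjusted p and the changed fold thresholds reuse the main fit, so no direction could turn there. Fits that left out a library share most of their data with the main fit. The count of genes lower in macrometastatic Ly6Ghigh than normal lung was 1, but 2 with upper-quartile scaling, 4 without a fold threshold and 4 on log2(FPKM + 1), on log2(FPKM + 0.1) and with FPKM of at least 1 in 3 libraries. The count higher in Ly6Glow than normal lung was 5 and 3 in each of these FPKM settings, and the count higher in Ly6Glow than Ly6Ghigh was 1 and 0 at a threshold of 1. Counts also moved by less. *Hmgb2* was no longer lower in Ly6Glow than Ly6Ghigh with DESeq2 size factors, with DESeq2 and at a threshold of 1. Against normal lung, Ly6Glow gained *Hmgb1* as higher with DESeq2 size factors and DESeq2. It lost *Lmnb1* with upper-quartile scaling, with at least 10 counts in every library and at a threshold of 1. Leaving out each library gave 1 to 1 and 4 to 4 genes higher and lower in Ly6Glow than Ly6Ghigh, 4 to 4 and 1 to 1 in macrometastatic Ly6Ghigh than normal lung, and 5 to 5 and 3 to 3 in Ly6Glow than normal lung, with no log2 fold change moving by more than 0.15.

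Some values reversed. In Ly6Glow against Ly6Ghigh, *Lbr* was 0.0375 with DESeq2 size factors and with DESeq2, *Sun2* was -0.179 in all 3 FPKM settings, and *Hmgb1* was -0.182, -0.186 with the pseudocount of 0.1, and -0.182 with the FPKM filter. *Hmgb1* was -0.0113, -0.0115 and -0.0113 in macrometastatic Ly6Ghigh against normal lung, and -0.194, -0.198 and -0.194 in Ly6Glow against normal lung. *Padi2* in Ly6Glow against normal lung was -0.0463 with upper-quartile scaling, -0.0397 with at least 10 counts in every library, -0.24 on log2(FPKM + 1) and -0.474 with the pseudocount of 0.1. The cause was not tested.

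Across all genes, calls between the macrometastatic groups were 3560, of which 36.8% were higher in Ly6Glow. They were 3594 with 45.3% higher using DESeq2 size factors and 2243 with 14.3% higher on log2(FPKM + 1). Without a fold threshold they were 7868, and 1305 at a threshold of 1. In the other comparisons, higher calls were 41.8% and 41.3% of calls, and 21.8% and 14.9% on log2(FPKM + 1). The labels do not say whether same-numbered samples came from the same mice. No correlation of their deviations exceeded 0.0766, which with 3 libraries per group does not exclude a shared mouse. The replicate block gave 3522, 8856 and 9775 calls against 3560, 8874 and 9809, and left the counts among the 10 genes at 1, 4, 4, 1, 5 and 3. Depth limits *Lmnb2* in Ly6Glow, at 23.0 to 34.0 counts per library, and *Padi2*.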
